A study of Mus musculus with 2 samples.

Results

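The 42 genes described here code for proteins that copy DNA in S phase or are made for it, from the replicative helicase to the enzymes that supply nucleotides. They were chosen by name, from a list of DNA replication and S phase genes drawn up with earlier results of these data known, and all 42 were found as 1 row each among the 32285 genes counted. Their transcripts were counted in single cells of the mouse dentate gyrus, a hippocampal region whose radial glia give rise to intermediate progenitors, neuroblasts and granule neurons, as well as to astrocytes. The tissue was dissected at postnatal day 5 and profiled with the 3' droplet assay of 10x Genomics, in 1 library from control (wild type) mice and 1 from Setdb1_cKO mice. Setdb1 encodes a histone methyltransferase that trimethylates H3K9, a mark of silent chromatin, and cKO is read here as conditional knockout. The sources used here do not give the Cre driver, the deleted exons or the number of animals behind each library.

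S phase begins when licensed origins are opened by the helicase of the MCM proteins with Cdc45 and the GINS complex, and polymerases held by the sliding clamp PCNA then copy both strands. Transcription of many of these genes is switched on by E2F factors when a cell commits to division, so their RNA is widely used to mark cells in late G1 and S phase. In the dentate gyrus soon after birth, division takes place mainly among radial glia and intermediate progenitors, while granule neurons, pyramidal neurons and the reelin-making Cajal-Retzius cells have left the cell cycle.

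The sequence upstream of the start is shown for the 4 members with the most unique molecular identifiers (UMIs, 1 for each counted RNA molecule) in control intermediate progenitors that have a RefSeq promoter entry, because this is where E2F factors act on such genes. Each line gives the 250 bases before the transcription start on GRCm38.p6, 5' to 3' on the gene's own strand, with capitals marking the E2F words TTTCCCGC, TTTCGCGC, TTTGCCGC and TTTGGCGC on either strand.
Nasp, chr4:116627952-116628201, minus strand: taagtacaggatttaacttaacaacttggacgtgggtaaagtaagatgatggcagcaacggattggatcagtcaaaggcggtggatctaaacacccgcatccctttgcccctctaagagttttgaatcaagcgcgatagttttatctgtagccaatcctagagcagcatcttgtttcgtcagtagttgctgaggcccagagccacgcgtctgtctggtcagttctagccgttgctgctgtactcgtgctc
Pcna, chr2:132253181-132253430, minus strand: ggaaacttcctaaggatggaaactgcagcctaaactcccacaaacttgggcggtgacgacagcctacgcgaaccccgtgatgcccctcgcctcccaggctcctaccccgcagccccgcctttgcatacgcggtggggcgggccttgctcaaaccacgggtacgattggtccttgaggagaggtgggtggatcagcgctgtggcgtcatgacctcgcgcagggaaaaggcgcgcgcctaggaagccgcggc
Mcm6, chr1:128359706-128359955, minus strand: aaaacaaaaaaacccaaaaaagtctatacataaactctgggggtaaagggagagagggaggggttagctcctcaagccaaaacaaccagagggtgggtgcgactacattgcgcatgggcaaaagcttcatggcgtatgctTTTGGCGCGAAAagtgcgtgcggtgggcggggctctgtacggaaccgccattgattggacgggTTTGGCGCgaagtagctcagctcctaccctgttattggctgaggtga
Mcm7, chr5:138171884-138172133, minus strand: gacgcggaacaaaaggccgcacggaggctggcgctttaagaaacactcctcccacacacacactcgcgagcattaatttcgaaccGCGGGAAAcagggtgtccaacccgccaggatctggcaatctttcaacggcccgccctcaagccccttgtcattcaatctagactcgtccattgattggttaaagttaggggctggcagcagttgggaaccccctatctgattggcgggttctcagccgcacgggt
The Mcm6 stretch held 3 matches, of which a pair overlapped, and the first began 110 bases before the start. The Mcm7 stretch, from the first listed of its RefSeq starts, held 1 match 165 bases before the start, while the promoter of its other start held 0, and the stretches of Nasp and Pcna held 0. RefSeq promoters of 300 bases, from 250 before the start to 50 after it, were found for 31 of the 42 members, which gave 36 promoters. An E2F word lay in 13 of these 36, or 36.1%, against 2.26% of all 32851 promoters of the same length. The share was 27.7% of 65 promoters of other replication genes and 5.88% of 51 promoters of genes that peak in G2 and mitosis (G2/M genes). The word TTTGAA or TTCGAA, which spells the CHR element of G2/M genes, showed the reverse, with 19.4% of the members' promoters, 19.2% of all promoters and 74.5% of those of G2/M genes. CCAAT, read on both strands, lay in 63.9% of the members' promoters and in 37.4% of all, with 47.7% for other replication genes and 74.5% for G2/M genes. These are matches of letters in a window and say nothing of binding.

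Because each genotype had 1 library, no difference below has a replicate check and none was tested. Differences are between these libraries. Intervals are exact at the 95% level and cover counting error alone, not variation between cells, animals or dissections. The libraries held 14397 and 12060 barcodes with 82393428 and 87845965 UMIs in control and Setdb1_cKO, and 68 barcodes occurred in both, 39 of them among kept cells. After filtering, 10824 control and 9379 Setdb1_cKO cells were kept, with medians of 5932.5 and 6982 UMIs. Xist was counted 16 times in the control and 94408 times in the Setdb1_cKO library, and Ddx3y, a Y-linked gene, 4181 and 0 times, so genotype and sex cannot be told apart. Levels are CPM, counts scaled to the total of the class. Over all kept cells Setdb1 stood at 42.7 CPM in control against 20.4 CPM in Setdb1_cKO. Its Setdb1_cKO to control ratio was 0.407 (0.334 to 0.492) in radial glia and 0.459 (0.377 to 0.557) in intermediate progenitors, and 0.774 (0.527 to 1.14) in microglia, 1.03 (0.697 to 1.53) in oligodendrocyte progenitors and 1.35 (0.889 to 2.04) in endothelial cells. The sources used here do not say whether the counted 3' tags lie in the deleted part.

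Cells were put into classes by marker genes, none of which is a member. Each name means cells whose markers resemble that type. The defining markers helped to assign the cells, so their presence follows from that and does not test the names. Hopx was at 670 and 870.1 CPM in control and Setdb1_cKO radial glia, and Eomes at 672 and 456 CPM in intermediate progenitors. Pdgfra was at 1452.5 and 1202 CPM in oligodendrocyte progenitors and Cx3cr1 at 2399 and 2350 CPM in microglia. Hopx does not set radial glia apart from astrocytes, where it was at 569 and 845 CPM. Markers of 1 class did not all move alike: Slc1a3 was at 2287 and 1965 CPM in radial glia. In microglia P2ry12 was at 779 and 494 CPM. Glial intermediate progenitors were radial-glia-like cells with both Olig2 and Egfr. The border between radial glia and astrocytes is a range: 439 control and 295 Setdb1_cKO radial glia held 4 astrocyte markers, 1 short of the limit, and 421 and 332 astrocytes held 5, just over it. In 11 classes both libraries had at least 100 cells, and these are the ones compared.

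Summed over the 42 members, S phase RNA was highest in the progenitor classes in both libraries. It was lowest in pyramidal or mossy neurons and Cajal-Retzius cells. In control it stood at 3541 CPM in intermediate progenitors, 2740 in radial glia, 2512 in glial intermediate progenitors, 2410 in oligodendrocyte progenitors and 1890 in microglia, the resident immune cells of the brain. It was at 1438 CPM in astrocytes, 1116 in endothelial cells, 878 in neuroblasts and granule neurons, 682 in fibroblasts, 654 in Cajal-Retzius cells and 610.0 in pyramidal or mossy neurons. In Setdb1_cKO the same sums were 3287, 2628, 3286, 2336 and 1255 CPM for the first 5 classes and 1134, 1410, 824, 809, 673 and 521 CPM for the other 6. Intermediate progenitors and glial intermediate progenitors were thus level with each other in Setdb1_cKO and far apart in control. Among these 11 classes, intermediate progenitors had the highest level of 31 of the 42 members in control and 17 in Setdb1_cKO, and glial intermediate progenitors of 1 and 20.

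**Figure D1:**
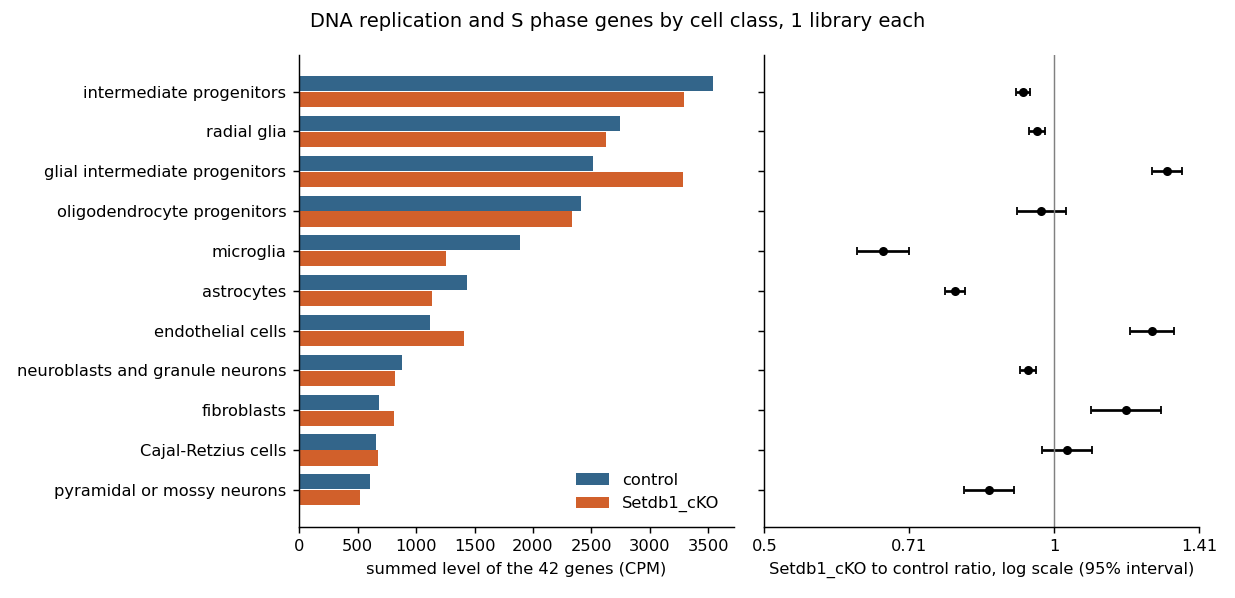
Summed level of the 42 S phase genes in 11 cell classes (left, CPM) and the Setdb1_cKO to control ratio of that level (right, log scale). Bars are 1 library each, and points carry the 95% exact interval for counting error. The whole interval lies above 1 in glial intermediate progenitors, endothelial cells and fibroblasts, and microglia lie lowest at 0.664.

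Over all kept cells the control sum of 1750 CPM stood against 1301 CPM in Setdb1_cKO, a ratio of 0.744 (0.738 to 0.750). The libraries also differed in which cells were captured. Intermediate progenitors were 1471 of the control cells (13.6%) and 698 of the Setdb1_cKO cells (7.44%), and radial glia were 1641 (15.2%) and 952 (10.2%), whereas neuroblasts and granule neurons were 3987 (36.8%) and 4494 (47.9%). Intermediate progenitors supplied 32.9% of all S phase UMIs in control (32.7 to 33.2%) and 21.2% in Setdb1_cKO (21.0 to 21.5%). Radial glia supplied 18.9% and 17.0%, astrocytes 13.6% and 11.9%, and neuroblasts with granule neurons 15.3% and 26.7%. Shares of cells captured in 1 library per genotype carry dissection and dissociation with them, and their part was not tested. The count of intermediate progenitors also rests on their limit of 2 Eomes UMIs, and Eomes had a ratio of 0.678 (0.650 to 0.708) within them. Exactly 2 were held by 318 control and 218 Setdb1_cKO intermediate progenitors, while 647 and 350 other cells of the radial glia and neuroblast lineage held 1. Shares of UMIs were not computed at other Eomes limits, and the part of this border was not tested.

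Within the neurogenic progenitors the summed level was nearly equal between the libraries. In radial glia the ratio was 0.959 (0.940 to 0.978) and in intermediate progenitors 0.928 (0.913 to 0.944). In radial glia 0 of 42 members were at least 1.5-fold lower or higher with an interval that excluded 1, where 5.54% of all 12410 measured genes were lower and 3.43% higher. In intermediate progenitors it was again 0 of 42 either way, against 6.53% lower and 3.58% higher of 12202 genes. Genes entered these counts once the class held 30 or more of their UMIs, both libraries added up. The median log2 ratio of the members was -0.07 in radial glia and -0.09 in intermediate progenitors, beside -0.07 and -0.05 for all measured genes. The radial glia ratio rests on where they are divided from astrocytes: it was 1.02 when 4 astrocyte markers already made an astrocyte, 0.882 when 6 were needed, and 0.858 (0.845 to 0.871) for radial glia and astrocytes together.

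The replicative helicase, which unwinds DNA at the fork, was counted through the ring subunits Mcm2 to Mcm7 and the activators Cdc45 and Gins2. In radial glia its 8 genes summed to 516 CPM in control and 477 CPM in Setdb1_cKO, with a ratio of 0.924 (0.882 to 0.967), and to 690 and 622 CPM in intermediate progenitors, a ratio of 0.901 (0.867 to 0.936). Mcm6 was at 99.5 and 100.3 CPM in radial glia (876 and 646 UMIs) and at 183 and 171 CPM in intermediate progenitors (2172 and 1100 UMIs), with intervals that reached 1. Mcm7 was at 99.997 and 92.97 CPM in radial glia, and at 174 and 139 CPM in intermediate progenitors, a ratio of 0.794 (0.733 to 0.860). In radial glia Mcm3 was at 97.4 and 80.6 CPM, which gave 0.827 (0.740 to 0.924), and it was at 88.5 and 80.8 CPM in intermediate progenitors. The ring genes did not all stand on the same side of 1: in intermediate progenitors Mcm4 was at 59.3 and 71.0 CPM, a ratio of 1.20 (1.06 to 1.35), and Mcm5 at 59.9 and 45.0 CPM, a ratio of 0.751 (0.653 to 0.862). Mcm2 and Gins2 had intervals that included 1 in both classes, as did Cdc45, whose product joins the ring to the GINS complex.

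Origin licensing loads that ring before S phase through Cdc6, and geminin, encoded by Gmnn, blocks a further round. Cdc6 was at 11.5 and 12.7 CPM in radial glia and 19.2 and 17.1 CPM in intermediate progenitors. Gmnn was at 63.9 and 64.6 CPM in radial glia and 53.6 and 57.0 CPM in intermediate progenitors, and neither gene had an interval clear of 1 in either class.

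The polymerase group holds Pcna, the sliding clamp, Pola1 and Prim1, the catalytic subunits of polymerase alpha and primase, Pold3, a subunit of polymerase delta, Rfc2 and Dscc1 of the clamp loaders, and Rpa2, which binds single-stranded DNA. In radial glia Pcna was at 195 and 175 CPM, which gave 0.895 (0.830 to 0.966), and it was at 193 and 174 CPM in intermediate progenitors, a ratio of 0.904 (0.841 to 0.972). Radial glia held Rfc2 at 101 and 82.4 CPM, which gave 0.813 (0.729 to 0.906), and intermediate progenitors at 88.5 and 78.6 CPM. Rpa2 was at 62.0 and 66.1 CPM in radial glia and at 67.6 and 54.6 CPM in intermediate progenitors, a ratio of 0.808 (0.711 to 0.917). Prim1 was at 50.7 and 52.8 CPM and at 70.8 and 73.6 CPM in these classes, and its intervals included 1, as did those of Pola1 and Dscc1.

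Genes for the joining of Okazaki fragments had the lowest summed ratio of all roles in both classes. Fen1, the flap nuclease, and Lig1, the ligase that seals the nicks, summed to 187 and 144 CPM there, a ratio of 0.770 (0.712 to 0.832), and in radial glia to 159 and 140 CPM, which gave 0.883 (0.811 to 0.961). Lig1 alone was at 136 and 106 CPM in intermediate progenitors (1615 and 682 UMIs) and at 129 and 111 CPM in radial glia. Rrm2, the regulated subunit of ribonucleotide reductase, was at 126 and 91.7 CPM in intermediate progenitors (1490 and 589 UMIs), a ratio of 0.729 (0.662 to 0.803). Rrm1, the other subunit of the same enzyme, was at 126 and 131 CPM with 1490 and 839 UMIs, a ratio of 1.04 (0.953 to 1.13). The 2 subunits therefore had equal UMIs in control intermediate progenitors and differed in Setdb1_cKO. Radial glia had the same order, with Rrm2 at 76.4 and 63.3 CPM, a ratio of 0.829 (0.731 to 0.939), and Rrm1 at 97.2 and 97.3 CPM. Tyms, thymidylate synthase, was at 120 and 101 CPM in intermediate progenitors, a ratio of 0.840 (0.764 to 0.922), and at 66.7 and 63.3 CPM in radial glia.

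The histone and chromatin group was the most abundant role, and its sum was nearly equal between the libraries. It comprises Nasp, a chaperone of histone H3 and H4, Chaf1b of the chromatin assembly factor, Slbp, which binds the stem-loop of histone mRNA, Casp8ap2, needed for histone gene expression, Atad2, a chromatin ATPase, and Cdca7, a partner of the remodeller HELLS. They summed to 633 and 635 CPM in radial glia and 951 and 938 CPM in intermediate progenitors. Nasp, the member of highest level, was at 325 and 311 CPM in radial glia and 498 and 492 CPM in intermediate progenitors (5898 and 3159 UMIs). Slbp was at 136 and 128 CPM in intermediate progenitors and Atad2 at 95.9 and 91.4 CPM. Cdca7 was higher in Setdb1_cKO in both classes, with 42.5 and 57.4 CPM among radial glia, which gave 1.35 (1.17 to 1.56), and with 84.8 and 99.2 CPM in intermediate progenitors, a ratio of 1.17 (1.06 to 1.29). Chaf1b went opposite ways, with ratios of 1.21 (1.005 to 1.46) in radial glia and 0.753 (0.646 to 0.876) in intermediate progenitors. A gene annotated on the same strand overlaps Chaf1b, so its counts are less certain.

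Among the fork checkpoint and ubiquitin genes, Usp1, a deubiquitinase of PCNA, was at 118 and 116 CPM in radial glia and 142 and 134 CPM in intermediate progenitors. Tipin, of the fork protection complex, in radial glia stood at 92.7 and 105 CPM, which gave 1.13 (1.02 to 1.25), and Ubr7, a ubiquitin ligase that binds histone, at 56.0 and 67.5 CPM, a ratio of 1.21 (1.06 to 1.37). Dtl, which targets Cdt1 for destruction, was the one of this group with an interval below 1 in both classes, with ratios of 0.835 (0.716 to 0.972) and 0.876 (0.772 to 0.993). Clspn, the adaptor of the checkpoint kinase Chk1, and Wdr76 had intervals that included 1 in both.
Of the repair genes, the nuclease gene Exo1 was at 15.5 and 11.5 CPM in radial glia and 17.9 and 12.8 CPM in intermediate progenitors, with ratios of 0.743 (0.552 to 0.994) and 0.713 (0.546 to 0.925). Ung, which removes uracil from DNA, was at 34.4 and 25.8 CPM in intermediate progenitors, a ratio of 0.750 (0.623 to 0.901), and Rad51ap1 at 46.8 and 43.9 CPM. The helicase genes Blm and Brip1 had intervals that included 1 in both classes. Esco2, the acetyltransferase that ties sister chromatids together in S phase, was at 91.8 and 72.4 CPM in intermediate progenitors, a ratio of 0.789 (0.706 to 0.880), and 67.4 and 61.5 CPM in radial glia. The cell cycle genes Ccne2, cyclin E2, and E2f8, an atypical repressive E2F, were at 15.1 and 19.0 CPM and at 20.3 and 23.2 CPM in intermediate progenitors, with intervals that included 1.

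Top2a and Mki67, genes of dividing cells that are not members, stood differently from the members in these classes. Their summed ratio was 0.847 (0.810 to 0.885) in radial glia and 1.13 (1.09 to 1.16) in intermediate progenitors, on the other side of 1 from the members' 0.928. The 52 G2/M genes lay nearer to the members, with summed ratios of 0.980 (0.968 to 0.992) and 1.02 (1.01 to 1.03). Within radial glia holding at least 1 UMI of either gene, 554 control and 292 Setdb1_cKO cells, the members summed to 4566 and 4797 CPM, a ratio of 1.05 (1.03 to 1.08). In radial glia without such a UMI, 1087 and 660 cells, they summed to 1358 and 1140 CPM, a ratio of 0.840 (0.808 to 0.873). The value in the first group was 0.957 when dividing cells were instead those with UMIs of at least 2 G2/M genes. The split by Top2a or Mki67, here and in the classes below, used unthinned UMIs and so depends on depth. Median depth in radial glia was 5155 UMIs in control and 6505.5 in Setdb1_cKO, and its part was not tested. In intermediate progenitors the level was 5321 and 5103 CPM in cells with such a UMI and 1643 and 1570 CPM in cells without, with ratios of 0.959 (0.941 to 0.977) and 0.955 (0.923 to 0.988).

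Glial intermediate progenitors, dividing cells that give rise to glia, had the highest ratio of the 11 classes. The 271 control cells gave a sum of 2512 CPM and the 165 Setdb1_cKO cells 3286 CPM, a ratio of 1.31 (1.26 to 1.36), and 41 of 42 members had a ratio above 1. Here 7 of 42 members were at least 1.5-fold higher, against 4.02% of 9640 genes, and 0 were lower, against 6.06%. The median log2 ratio was 0.41 for the members and -0.01 for all measured genes. Blm was at 18.03 and 31.96 CPM (46 and 54 UMIs), a ratio of 1.77 (1.17 to 2.69). Ung was at 19.6 and 33.7 CPM, a ratio of 1.72 (1.16 to 2.57), and Mcm2 at 33.7 and 56.8 CPM, a ratio of 1.69 (1.25 to 2.28). Cdc6, Rad51ap1, Cdca7 and Ubr7 had ratios of 1.64 (1.01 to 2.65), 1.55 (1.10 to 2.19), 1.51 (1.16 to 1.96) and 1.51 (1.17 to 1.95). Among 62 measured replication genes outside the members, 11 were higher and 1 lower, with Hells at 61.6 and 123 CPM and Rfc3 at 60.8 and 110.1 CPM. Top2a and Mki67 were at 545 and 531 CPM, a ratio of 0.974 (0.895 to 1.06), and the G2/M genes summed to a ratio of 1.09 (1.07 to 1.12).
The make-up of this class differed between the libraries. Its cells held a median of 6 astrocyte markers in control and 4 in Setdb1_cKO, and the summed level of that list was 2344 and 1300 CPM. Among cells with under 5 astrocyte markers, 109 and 99 of them, the members summed to 3588 and 4430 CPM, a ratio of 1.23 (1.18 to 1.29). Among cells with at least 5, 162 and 66 of them, they summed to 1854 and 1810 CPM, a ratio of 0.976 (0.915 to 1.04). A gate in 1 step over all marker lists kept 49 control and 34 Setdb1_cKO cells in the class and gave a ratio of 0.823 with 0 members higher.

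**Figure D2:**
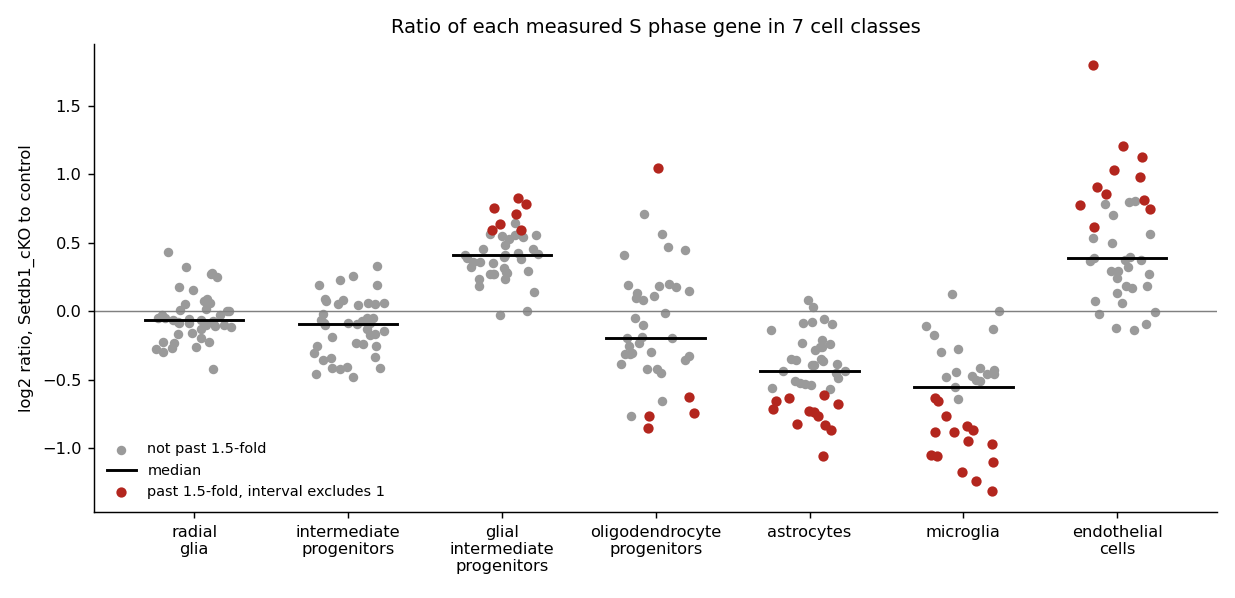
Log2 ratio of Setdb1_cKO to control for each measured member in 7 cell classes. Each point is 1 gene, red points are at least 1.5-fold apart with a 95% interval that excludes 1, and black lines are medians, which lie at 0.41 in glial intermediate progenitors and -0.56 in microglia; radial glia and intermediate progenitors hold 0 red points.

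In oligodendrocyte progenitors, the dividing cells that make myelinating oligodendrocytes, 258 control cells gave a sum of 2410 CPM and 163 Setdb1_cKO cells 2336 CPM, a ratio of 0.969 (0.914 to 1.03). Of 39 measured members 4 were lower, against 2.63% of 8211 genes, and 1 was higher, against 2.24%. Rrm1 was at 101 and 59.9 CPM (114 and 51 UMIs), a ratio of 0.595 (0.419 to 0.835), and Gmnn at 55.7 and 30.6 CPM (63 and 26 UMIs), a ratio of 0.549 (0.334 to 0.880). Mcm4 was at 82.2 and 52.9 CPM, a ratio of 0.644 (0.440 to 0.928), and Rad51ap1 at 42.4 and 24.7 CPM, a ratio of 0.582 (0.331 to 0.991). Pola1, which lies on the X chromosome, was at 12.4 and 25.9 CPM on 14 and 22 UMIs, a ratio of 2.09 (1.02 to 4.42). The libraries differ in sex, and its part in this ratio was not tested. The licensing pair Cdc6 and Gmnn summed to 0.542 (0.350 to 0.822) of the control level, on 81 and 33 UMIs. Most of these were Gmnn's, given above, and Cdc6 had too few to count as measured. The histone and chromatin group stood at 1.05 (0.942 to 1.18).

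In microglia the members were lower as a group. Their 178 control cells gave a sum of 1890 CPM and the 218 Setdb1_cKO cells 1255 CPM, a ratio of 0.664 (0.623 to 0.707). Of 33 measured members 15 were lower, against 5.2% of 7364 genes, and 0 higher, against 3.42%, and the median log2 ratio was -0.56, beside -0.07 for all measured genes. The helicase was the role furthest down, at 468 and 263 CPM, a ratio of 0.561 (0.490 to 0.641). The 2 cell cycle regulators were next, at 0.569 (0.307 to 1.04). Mcm3 was at 138 and 74.8 CPM (144 and 116 UMIs), a ratio of 0.542 (0.420 to 0.697), and Mcm6 at 89.2 and 39.4 CPM (93 and 61 UMIs), a ratio of 0.441 (0.314 to 0.616). Mcm4, Mcm5 and Mcm2 had ratios of 0.422 (0.272 to 0.647), 0.478 (0.294 to 0.769) and 0.588 (0.379 to 0.909). Slbp was at 102 and 64.5 CPM, a ratio of 0.634 (0.478 to 0.842), and Fen1 at 44.1 and 23.9 CPM, a ratio of 0.541 (0.341 to 0.852).
Dtl was the lowest of the 15, at 30.7 and 12.3 CPM on 32 and 19 UMIs, a ratio of 0.399 (0.214 to 0.726). Rpa2, Cdca7, Clspn, Rad51ap1, Wdr76, Rrm2 and Usp1 had ratios of 0.462, 0.480, 0.508, 0.516, 0.546, 0.557 and 0.644, each with an interval below 1. The G2/M genes summed to 0.692 (0.662 to 0.722) of control, and Top2a with Mki67 to 0.767 (0.661 to 0.892). In microglia with a Top2a or Mki67 UMI, 53 and 45 cells, the members were at 3147 and 2740 CPM, a ratio of 0.871 (0.801 to 0.946). In those without, 125 and 173 cells, they were at 1158 and 757 CPM, a ratio of 0.654 (0.592 to 0.721). With dividing microglia defined by UMIs of at least 2 G2/M genes, the first ratio was 0.646. The radial glia marker list was at 759 and 236 CPM in microglia, beside 18190 and 16182 CPM in radial glia. In the 107 control and 155 Setdb1_cKO microglia with at most 1 of those markers the members' ratio was 0.642 (0.588 to 0.701), and 9 members were lower. The count of 15 was 4 with stricter cell filters, 3 when at least 100 UMIs were asked for and 6 at 2-fold.

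Astrocytes, the support cells that share markers with radial glia, were the other class in which many members were lower. Their 1626 control cells gave a sum of 1438 CPM and the 1219 Setdb1_cKO cells 1134 CPM, a ratio of 0.788 (0.770 to 0.807), and 40 of 42 members had a ratio below 1. Of the 42, 12 were lower, against 4.91% of 13025 genes, and 0 higher, against 6.04%. Lig1 was at 56.7 and 35.4 CPM (685 and 368 UMIs), a ratio of 0.624 (0.548 to 0.709), Mcm7 at 45.2 and 29.5 CPM, a ratio of 0.653 (0.566 to 0.752), and Rrm2 at 33.7 and 19.8 CPM, a ratio of 0.588 (0.495 to 0.697). Cdc6 was lowest, at 5.05 and 2.40 CPM, a ratio of 0.476 (0.286 to 0.769). The other 8 lower members were Mcm5, Cdc45, Tyms, Clspn, Exo1, Brip1, Rad51ap1 and Esco2, with ratios from 0.543 to 0.643. The G2/M genes were further down, with 38 of 52 lower and a summed ratio of 0.694 (0.684 to 0.704). Within astrocytes with a Top2a or Mki67 UMI, 308 and 146 cells, the members were at 3466 and 3328 CPM, a ratio of 0.960 (0.929 to 0.992). That ratio was 0.786 when dividing cells were instead those with UMIs of at least 2 G2/M genes. The count of 12 was 1 under the gate in 1 step, 1 at 2-fold and 5 with stricter cell filters.

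Outside the neural lineage, endothelial cells were higher in Setdb1_cKO. Their 183 control cells gave a sum of 1116 CPM and the 102 Setdb1_cKO cells 1410 CPM, a ratio of 1.26 (1.20 to 1.33), with 11 of 39 measured members higher, against 3.19% of 9773 genes, and 0 lower, against 2.4%. Pcna was at 59.8 and 91.4 CPM (202 and 151 UMIs), a ratio of 1.53 (1.23 to 1.90), and Mcm7 at 25.2 and 47.2 CPM, a ratio of 1.88 (1.36 to 2.58). Ung rested on 11 and 19 UMIs, at 3.26 and 11.5 CPM, a ratio of 3.53 (1.597 to 8.22). The other 8 were Mcm4, Mcm5, Prim1, Rpa2, Lig1, Rrm2, Clspn and E2f8, with ratios from 1.67 to 2.32. The median depth of these cells was 14026 UMIs in control and 9305 in Setdb1_cKO, and its part in the result was not tested. Genes of dividing cells outside the members were not all higher. Top2a with Mki67 summed to a ratio of 0.910 (0.795 to 1.04), and the G2/M genes to 1.09 (1.05 to 1.13). The share of endothelial cells with a Top2a or Mki67 UMI, once cells were thinned to equal depth, was higher in Setdb1_cKO. It was 17.3% (11.9 to 23.8%) in control and 31.5% (22.2 to 42.04%) in Setdb1_cKO, with overlapping intervals. Replication genes outside the members summed to 1.20 (1.15 to 1.26), with 8 of 51 measured higher and 0 lower. The count of 11 was 6 when at least 100 UMIs were asked for and 4 at 2-fold. In fibroblasts the sum was 682 and 809 CPM, a ratio of 1.19 (1.09 to 1.29) that was 0.989 when called doublets were kept. There 3 of 25 measured members were higher, against 3.71% of 8432 genes, and 1 lower, against 2.5%. The higher members were Atad2 (25 and 55 UMIs, a ratio of 1.99, 1.22 to 3.33), Gmnn and Pcna, and the lower one was Mcm3. Top2a and Mki67 were also higher in fibroblasts, at 71.2 and 129.99 CPM, and 16 control and 13 Setdb1_cKO fibroblasts held a UMI of either.

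In neuroblasts and granule neurons the ratio was 0.938 (0.921 to 0.956), with 2 of 41 measured members lower, against 5.29% of 14341 genes, and 0 higher, against 8.63%. These were Ung, at 3.52 and 2.17 CPM, and Cdc45, at 4.06 and 2.70 CPM. Under the gate in 1 step the count of 2 was 13 and the summed ratio 0.839. In pyramidal or mossy neurons the summed ratio was 0.855 (0.805 to 0.908), and 1 of 25, Pola1, was lower, against 6.99% of 10942 genes, and 0 higher, against 4.37%. In Cajal-Retzius cells 0 of 22 were lower or higher, against 2.73% and 3.51% of 10360 genes, and the summed ratio was 1.03 (0.970 to 1.09).

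The members differed widely in how far they were confined to dividing classes. Each was set against pyramidal or mossy neurons and Cajal-Retzius cells pooled, 596 control and 784 Setdb1_cKO cells. Pyramidal or mossy neurons were 166 and 396 of these, so the reference differed in make-up between the libraries, and its part was not tested. All 42 were higher in intermediate progenitors, with intervals above 1, in both libraries, by a median of 8.40-fold in control and 10.3-fold in Setdb1_cKO. Gins2 was the least confined in control, at 36.7 CPM in progenitors and 20.3 CPM in neurons, a ratio of 1.81 (1.47 to 2.24). Ubr7, Pold3, Rfc2 and Casp8ap2 followed, with control ratios of 1.84, 2.05, 2.14 and 2.38 and Setdb1_cKO ratios of 1.94, 2.19, 2.25 and 2.47. Of these, Gins2 and Rfc2 overlap genes on the opposite strand, and the sources used here do not say whether counting used strand. At the other end Cdca7 was at 84.8 CPM in progenitors and 0.701 CPM in neurons in control, a ratio of 121 (47.1 to 445), and 182 (83.0 to 497) in Setdb1_cKO. Gmnn, Esco2, Clspn and Mcm5 had control ratios of 76.5, 74.8, 49.4 and 42.8, and Setdb1_cKO ratios of 62.7, 199, 302 and 33.0. The value for Clspn in Setdb1_cKO rested on 3 neuron UMIs (103 to 1471). Pcna, a common label of dividing cells, stood low in this order, at 193 and 38.7 CPM, a ratio of 4.97 (4.33 to 5.74) in control and 4.81 (4.29 to 5.41) in Setdb1_cKO, and Nasp at 4.25 (3.92 to 4.61) and 4.48 (4.20 to 4.80).

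**Figure D3:**
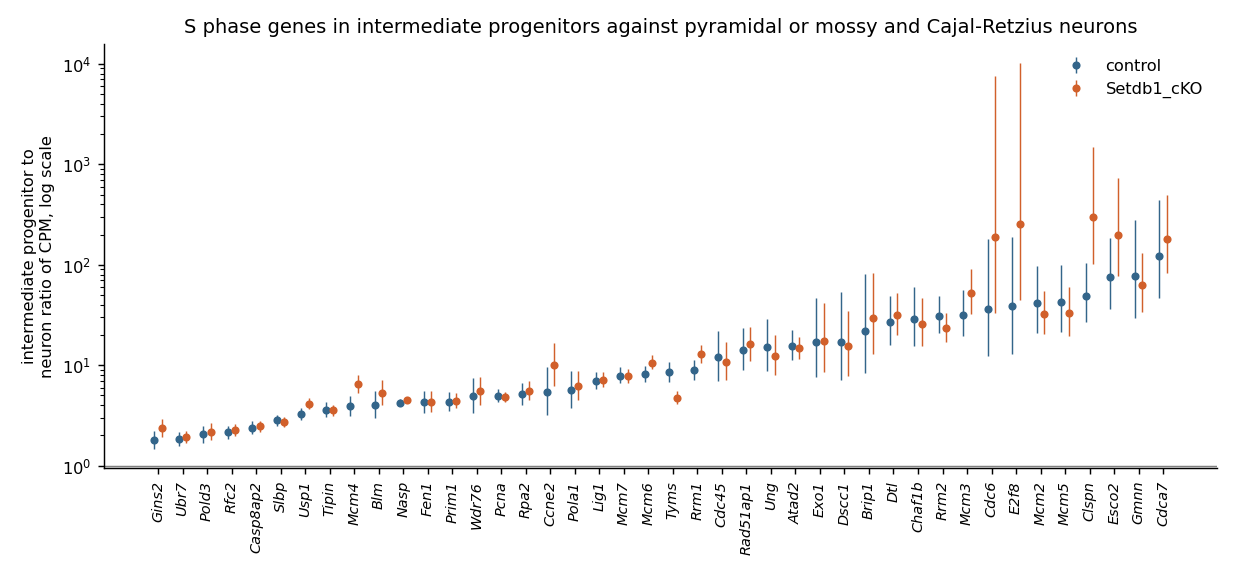
Ratio of each member's level (CPM) in intermediate progenitors to that in pyramidal or mossy and Cajal-Retzius neurons, on a log scale, ordered by the control value. Points are 1 library each with 95% exact intervals for counting error; they run from 1.81 for Gins2 to 121 for Cdca7 in control.

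The members also differed in how often they were found together with Top2a or Mki67, whose RNA is highest later in the cycle. Cells were thinned to 2000 UMIs for this, which left 1468 control and 697 Setdb1_cKO intermediate progenitors, of which 30.9% and 29.99% held such a UMI. Among cells with Ung the share was 23.2% (14.6 to 33.8%) in control and 20.5% (9.30 to 36.5%) in Setdb1_cKO. It was 40.7% and 37.2% for Gins2, 43.5% and 46.6% for Mcm7, 44.9% and 43.3% for Mcm6 and 47.6% and 49.0% for Pcna. It was 72.9% (66.8 to 78.4%) and 71.1% (59.5 to 80.9%) for Rrm2, 78.1% and 84.8% for Rad51ap1 and 89.7% (83.8 to 93.98%) and 88.5% (77.8 to 95.3%) for Esco2. Mcm6, Mcm7 and Pcna thus lay below Rrm2, Rad51ap1 and Esco2 in both libraries. The other ring genes were not all alike: Mcm5 stood at 51.9% (43.0 to 60.8%) in control and 63.9% (50.6 to 75.8%) in Setdb1_cKO. In radial glia and astrocytes the shares for Ung, Mcm6, Rrm2 and Esco2 were 34.8%, 39.4%, 66.3% and 78.9% in control and 35.8%, 39.1%, 62.4% and 87.4% in Setdb1_cKO. The base share there was 18.6% of all cells in control and 13.7% in Setdb1_cKO, so cells with Ung lay above it, unlike in intermediate progenitors. Ung was also not the lowest member there: Ubr7 stood at 25.6% and 21.8% and Casp8ap2 at 27.1% and 27.4%.

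**Figure D4:**
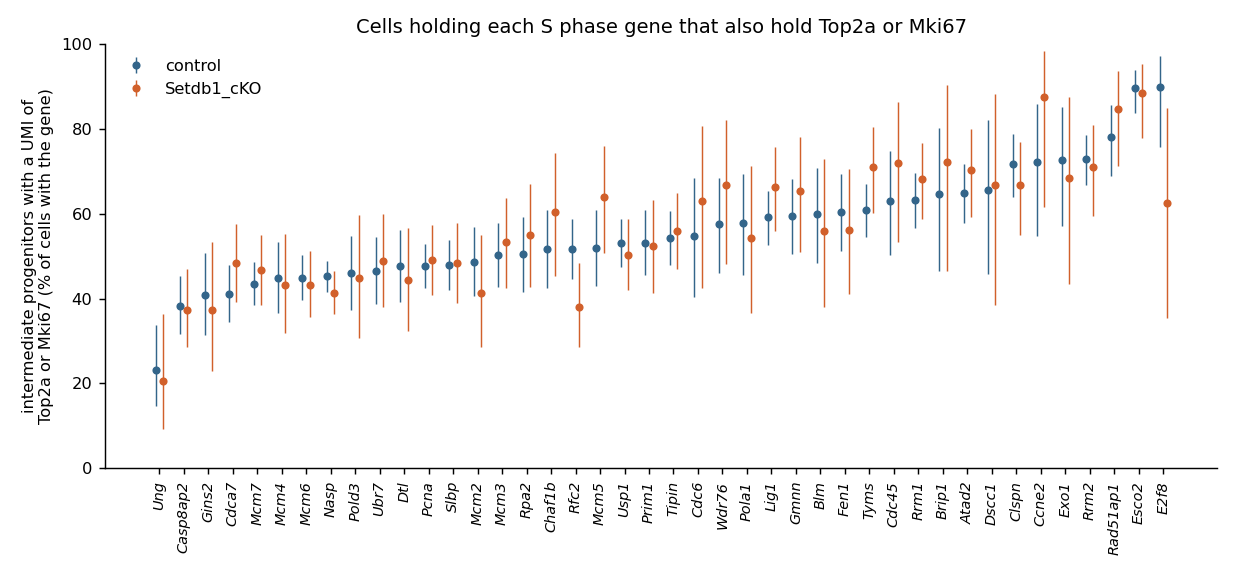
Share of thinned intermediate progenitors holding each member that also held a UMI of Top2a or Mki67, in %, ordered by the control value. Points are 1 library each with 95% Clopper-Pearson intervals; Ung lies lowest, at 23.2% and 20.5%, and Esco2 stands at 89.7% and 88.5%.

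The share of single cells with S phase RNA was taken as cells with at least 3 UMIs of the members after thinning to 2000 UMIs, shallower cells being left out. It was 57.2% of control (54.6 to 59.7%) and 56.4% of Setdb1_cKO (52.6 to 60.1%) intermediate progenitors, and 47.5% (44.9 to 50.1%) and 43.6% (40.4 to 47.0%) of radial glia, with 173 and 56 radial glia too shallow to enter. Microglia stood at 43.9% (35.9 to 52.1%) of 155 and 26.2% (20.1 to 33.1%) of 187 cells, and astrocytes at 26.8% (24.7 to 29.1%) and 20.5% (18.3 to 22.9%). Endothelial cells stood at 27.4% (20.8 to 34.8%) and 48.9% (38.3 to 59.6%), a difference of 21.5 points that was 1.98 points with stricter cell filters and 3.90 points after thinning to 4000 UMIs. Oligodendrocyte progenitors were at 44.0% and 39.7% and glial intermediate progenitors at 49.1% and 57.0%, with overlapping intervals. Pyramidal or mossy neurons and Cajal-Retzius cells, which do not divide, set the background. Together they gave 15.6% (12.7 to 18.8%) and 12.3% (10.0 to 14.8%), but they did not move alike. Pyramidal or mossy neurons alone stood at 17.5% (12.02 to 24.1%) of 166 control cells and 8.59% (6.02 to 11.8%) of 396 Setdb1_cKO cells. Cajal-Retzius cells stood at 14.8% of 405 and 16.2% of 370 cells, with overlapping intervals. The background thus differed between the libraries in level and make-up, and its part in the other differences was not tested. Cells with at least 10 members' UMIs were 0 of 571 and 0 of 766 in the 2 neuron classes together, with exact upper limits of 0.644% and 0.480%. They were 25.7% (23.5 to 28.1%) and 23.0% (19.9 to 26.3%) of intermediate progenitors. At that limit microglia stood at 10.97% (6.52 to 17.0%) and 4.28% (1.86 to 8.26%). Endothelial cells stood at 5.36% (2.48 to 9.93%) and 3.26% (0.678 to 9.24%), on 9 and 3 cells, the reverse of their order at 3 UMIs. Without thinning the first share was 75.4% and 78.5% in radial glia, 69.1% and 65.6% in microglia and 83.6% and 91.3% in the neurons. A share depends on which UMIs the thinning draws: the Setdb1_cKO minus control difference was -17.7 points in microglia and -3.84 points in radial glia in the draw given here, and -15.2 and -5.68 points when averaged over all possible draws.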

How the data were processed

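Dissociated cells of the dentate gyrus were profiled in 1 control and 1 Setdb1_cKO library. The deposited matrices hold raw UMI counts per gene and barcode, not normalised, and the submitters' processing notes list Cell Ranger 7.1.0, Seurat and the build mm10. No source used here gives the intron setting or the annotation release. The shallowest barcode held 500 UMIs.

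Cells were kept with at least 1000 UMIs, 500 genes and at most 10% mitochondrial UMIs. Scrublet (scanpy 1.11.5, expected rate 8%) marked 690 of 13090 and 670 of 11257 scored barcodes as doublets, and these were removed. A cell took the class with the largest share of 10 markers detected, with at least 3 detected and a lead of 0.1. Cells of the radial glia and neuroblast classes were then divided by defining genes: at least 2 UMIs of Eomes made an intermediate progenitor, at least 5 astrocyte markers an astrocyte, at least 3 UMIs of Olig2 and Egfr together with both present a glial intermediate progenitor, and at least 3 UMIs of Neurod6 without Prox1 a pyramidal or mossy neuron. This was the last of 3 gates tried. It was kept after marker levels, and with them the S phase level of each class, had been seen under all of them. The gate in 1 step that the design named is kept as an alternative, and a gate on standardised marker shares was tried and not kept. The members and gene lists were chosen with earlier results of these data known. The 11 classes compared are those with at least 100 cells in both libraries, a rule set after the class levels had been seen.

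CPM were taken from UMIs added up within a class. Intervals at 95% are exact: conditional Poisson for a ratio, Clopper-Pearson for a share. Log2 ratios used a pseudocount of 0.5 UMI. Named were the most abundant members of each role, those past 1.5-fold and those at the ends of the progenitor to neuron order. The code was tested on simulated counts. Coordinates came from GENCODE vM21 (GRCm38, the assembly of mm10) and promoters from RefSeq (GRCm38.p6). Genes overlapping on the opposite strand (9 members) or the same strand (1) may share reads. Numerical work used numpy 2.4.6, scipy 1.17.1 and pandas 2.3.3.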

Additional observations from a re-analysis of the deposited data

Results flagged for a closer look

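The values here were picked out because the Setdb1_cKO to control ratio lay on opposite sides of 1 in different cell classes, with 1 library per genotype, and the difference between classes was not tested. Over all 42 members the ratio was 1.31 in glial intermediate progenitors, 1.26 in endothelial cells and 1.19 in fibroblasts, while it lay below 1 in most other classes.

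In the helicase, Mcm2 was at 1.69 in glial intermediate progenitors and 0.588 in microglia. Mcm4 was at 1.70 in endothelial cells, 0.644 in oligodendrocyte progenitors and 0.422 in microglia, and Mcm5 at 1.75 in endothelial cells, 0.563 in astrocytes and 0.478 in microglia. Mcm7 was at 1.88 in endothelial cells and 0.653 in astrocytes. The licensing factor Cdc6 was at 1.64 in glial intermediate progenitors and 0.476 in astrocytes, and its counterpart Gmnn at 2.11 in fibroblasts and 0.549 in oligodendrocyte progenitors. Pola1, on the X chromosome, was at 2.09 in oligodendrocyte progenitors and 0.418 in pyramidal or mossy neurons, on 22 and 26 Setdb1_cKO UMIs.

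Rpa2 was at 2.05 in endothelial cells and 0.462 in microglia, Lig1 at 1.67 in endothelial cells and 0.624 in astrocytes, and Rrm2 at 1.97 in endothelial cells, 0.588 in astrocytes and 0.557 in microglia. Cdca7 was at 1.51 in glial intermediate progenitors and 0.480 in microglia, and Clspn at 1.80 in endothelial cells, 0.561 in astrocytes and 0.508 in microglia. Ung was at 1.72 in glial intermediate progenitors, 3.53 in endothelial cells and 0.617 in neuroblasts and granule neurons. Rad51ap1 was at 1.55 in glial intermediate progenitors, 0.597 in astrocytes, 0.582 in oligodendrocyte progenitors and 0.516 in microglia.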

How the results depend on the processing

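No paired analysis was possible because each genotype had 1 library, and for the same reason no replicate could be left out. Of the alternatives run, 135 summed levels, 233 member counts, 194 shares of cells, 13 levels within cells with a Top2a or Mki67 UMI and 7 shares of UMIs stayed within the counting interval of the value given or, for counts, within 1.5 times of it. The others follow, and the cause was not tested for any of them. The other gates, thinning draws, marker splits and the removal of shared barcodes were chosen after seeing the data. Leaving out barcodes found in both libraries moved none of the summed levels, member counts or shares of cells beyond counting error or past a limit.

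With stricter cell filters the summed ratio was 1.02 in radial glia (the other side of 1), 0.966 in intermediate progenitors, 0.910 in oligodendrocyte progenitors, 0.813 in astrocytes, 0.751 in microglia, 1.47 in fibroblasts and 0.722 over all cells. Members past 1.5-fold were then 2 higher in radial glia, 0 higher in oligodendrocyte progenitors, 5 lower in astrocytes, 2 lower in pyramidal or mossy neurons, 4 lower in microglia and 0 lower in fibroblasts, and the endothelial difference in share was 1.98 points. Within cells with a Top2a or Mki67 UMI the ratio was 0.931 in intermediate progenitors, 1.26 in glial intermediate progenitors, 0.906 in oligodendrocyte progenitors and 1.01 in astrocytes (the other side of 1). With doublets kept the summed ratio was 0.882 in intermediate progenitors, 0.898 in neuroblasts and granule neurons, 1.20 in Cajal-Retzius cells (1.195) and 0.989 in fibroblasts (the other side of 1).

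A larger gate lead gave 0.919 in radial glia and 1.25 in glial intermediate progenitors, with 17.1%, 13.5% (13.45%) and 14.6% of control UMIs in radial glia, astrocytes and neuroblasts with granule neurons and 14.4% and 25.1% of Setdb1_cKO UMIs in radial glia and neuroblasts with granule neurons. No lead gave 0.989 in radial glia, with 20.8%, 13.9% and 15.5% of control UMIs in those 3 classes and 18.8% of Setdb1_cKO UMIs in radial glia. Scaling without mitochondrial, ribosomal protein and haemoglobin genes gave 0.985 in radial glia, 0.977 in neuroblasts and granule neurons, 0.937 in pyramidal or mossy neurons and 0.766 over all cells. Weighting cells equally gave 0.907, 0.771, 1.55, 1.05 and 0.770 in radial glia, pyramidal or mossy neurons, endothelial cells, fibroblasts and all cells. Without the most abundant member the ratio was 0.910 in neuroblasts and granule neurons and 0.726 over all cells.

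Asking for 10 UMIs gave 2 members lower in pyramidal or mossy neurons and 1 higher in Cajal-Retzius cells. Asking for 100 gave 2 lower and 0 higher in oligodendrocyte progenitors, 0 lower in pyramidal or mossy neurons, 3 lower in microglia, 6 higher in endothelial cells, and 0 lower and 1 higher in fibroblasts. At 2-fold there were 0 higher in glial intermediate progenitors, 0 lower in oligodendrocyte progenitors, 1 lower in astrocytes, 0 lower in neuroblasts and granule neurons, 6 lower in microglia, 4 higher in endothelial cells, and 0 lower and 1 higher in fibroblasts. Centring on the median of all genes gave 1 lower in neuroblasts and granule neurons, 1 higher in pyramidal or mossy neurons and 0 lower in fibroblasts.

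The difference in share for pyramidal or mossy neurons was -0.700 points thinned to 1000 UMIs, -17.6 points thinned to 4000 and -1.90 points for at least 5 member UMIs, and for endothelial cells 3.90 points thinned to 4000. Without thinning it was 3.02 points in radial glia, 10.1 in oligodendrocyte progenitors, -3.50 in microglia, 2.22 in endothelial cells and 8.49 in fibroblasts, and 6.16 in astrocytes, 4.89 in neuroblasts and granule neurons and 2.64 in pyramidal or mossy neurons. Of these, the sign was opposite to that after thinning in all but microglia and endothelial cells, and it was also opposite in intermediate progenitors (1.93) and glial intermediate progenitors (-1.10). With dividing cells defined by 2 G2/M genes the ratio was 0.957 in radial glia (the other side of 1), 0.928 in intermediate progenitors, 0.646 in microglia and 0.786 in astrocytes.

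With Eomes at 1 UMI, 4 members were lower in neuroblasts and granule neurons and 2 in pyramidal or mossy neurons, and with Eomes at 3 UMIs 0 were lower in the former. Radial glia stood at 1.02 with 4 astrocyte markers (the other side of 1) and 0.882 with 6, where astrocytes stood at 0.842. The gate in 1 step gave summed ratios of 0.864 in radial glia, 0.823 in glial intermediate progenitors (the other side of 1), 0.875 in oligodendrocyte progenitors, 0.957 in astrocytes, 0.839 in neuroblasts and granule neurons and 0.181 in 13 and 22 pyramidal or mossy neurons. It gave 3 members lower and 0 higher in glial intermediate progenitors, 0 higher in oligodendrocyte progenitors, 1 lower in astrocytes, 13 lower in neuroblasts and granule neurons and 0 lower in pyramidal or mossy neurons, and differences in share of -12.5 points in glial intermediate progenitors and 0 in pyramidal or mossy neurons. Glial intermediate progenitors with under 5 astrocyte markers stood at 1.23, and those with at least 5 at 0.976 (the other side of 1) with 1 member higher. In microglia with at most 1 radial glia marker 9 members were lower.

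Depth limits single members most where few could be measured: 22 of 42 in Cajal-Retzius cells, 25 in pyramidal or mossy neurons and in fibroblasts, and 33 in microglia.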
